A study of Arabidopsis thaliana with 12 samples.

Results

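Roots and rosettes of the EYFP overexpression line, the transgenic control of the series, were compared with each other on full medium, that is, the organ difference in plants that did not overexpress IMA1. The comparison used 4 of the 12 libraries of the series, 2 of roots and 2 of rosettes, and 20694 of 33607 gene rows, those whose deposited value reached 1 in 2 or more of these libraries. Both groups were Arabidopsis thaliana Columbia-0 seedlings carrying 35Spro:EYFP, a fluorescent protein under a broadly active promoter, and the line is a single one. Per the labels' protocols the seedlings had 10 days on full ES medium, were moved to full ES medium again and were harvested 72 hours later, at 50 µmol per square metre and second of continuous light on 1.5% sucrose with 25 seedlings per plate. The IMA1 overexpression line, grown on the same full medium, served as a repeat with other libraries (2 of roots and 2 of rosettes). IMA1 is a peptide of the iron-deficiency response. The labels do not say that the 2 libraries of a group came from separate cultures, so p-values measure the spread between these libraries, which may be technical.

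Roots take up water and mineral ions, and they carry root hairs, a cap and an endodermis sealed by the Casparian strip and suberin. Rosette leaves house the photosynthetic chloroplasts, and their epidermis bears a waxy cuticle and stomata. Many gene families have separate members for the organs, so that an organ's transcript profile shows its cell types and its metabolism. In bulk RNA, fewer cells of a type and less RNA per cell cannot be told apart.

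The root and the rosette libraries came from separate deposited tables, each normalized on its own, so every level below is the deposited value after a joint rescaling of the 4 columns, and every difference is the root minus the rosette mean on the log2(value + 1) scale. A positive difference means higher in roots. The joint factors were 0.839 and 0.838 for the root and 1.19 and 1.19 for the rosette libraries. The 13 genes of a list of common reference genes for quantitative PCR had a median difference of 0.08 and none of the 13 was called, against a median of 0.07 over all tested genes. PP2AA3, a phosphatase subunit among them, was at 34.4 and 35.3 in roots against 35.8 and 35.6 in rosettes. Organ, table and RNA integrity (RIN 9.8 to 10 in roots, 8.3 to 8.7 in leaves) moved together and cannot be told apart.

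The organs differed across most of the transcriptome. limma, with Benjamini-Hochberg adjustment over the 20694 genes, called 12655 genes (61.2%) at an adjusted p under 0.05, of which 6666 (32.2%) were higher in roots and 5989 (28.9%) higher in rosettes. Among the called genes, 3495 were higher in roots by a log2 difference of at least 1 and 4032 were higher in rosettes by as much, and at a difference of at least 4 there were 352 and 736. On the values as deposited, the median of all genes moved by 0.452 (log2) and 72.9% of the calls were higher in roots, against 52.7% on the joint scale. Calls in the same direction under the joint, the deposited and the reference-gene scale numbered 10686 (51.6%), 6348 higher in roots and 4338 higher in rosettes, and 7434 of the 7527 called genes with a difference of at least 1 were among them. With 1 library of an organ left out, the spread came from the 2 libraries of the other organ alone. A call lost without a root library was thus judged on the spread between the rosette libraries, and the reverse.

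Replicates were close to each other, with r across genes of 0.991 for roots and 0.979 for rosettes on the log2 scale. Among 11864 genes with a mean level of at least 10, 33 were 2-fold apart between the root libraries and 358 between the rosette libraries. A larger part of the rosette signal sat in few genes. The 10 highest genes held 8.2% and 8.14% of the summed values in rosettes and 2.99% and 3.72% in roots. At a deposited value of 1 or more, before the joint rescaling, roots had 19571 and 19581 genes and rosettes 18466 and 18455. The joint factors differed between the organs, so on the joint scale this cut-off was not the same for both. A level of at least 10 in both libraries of one organ with less than 1 in both of the other was met by 406 genes for roots and 429 for rosettes. The plot of root against rosette means shows the photosynthesis genes far above the line of equal level and the root genes along its floor.

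**Figure D1:**
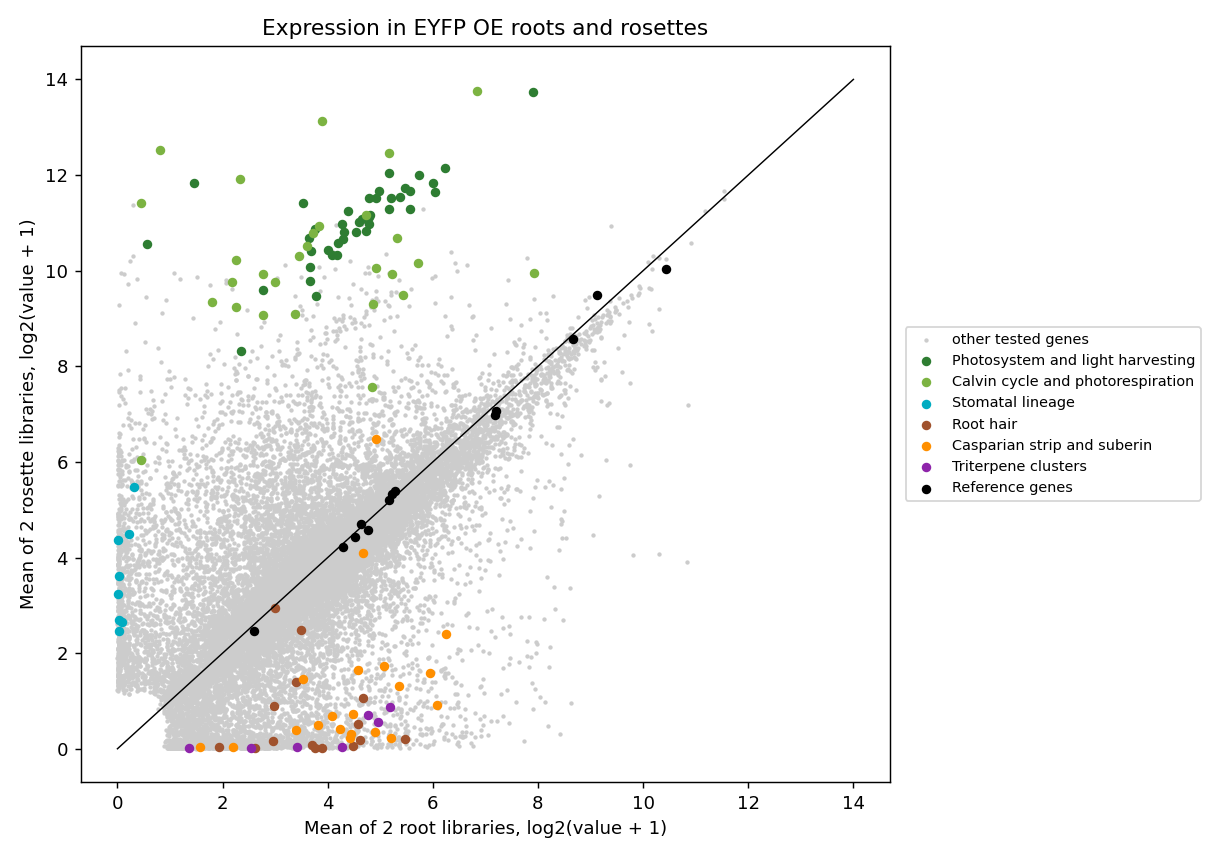
Mean level of each tested gene in the 2 EYFP OE root libraries (x axis) and the 2 rosette libraries (y axis), both as log2(value + 1), with 7 gene lists in colour and the line of equal level in black. Photosystem genes lie above the line, root hair and Casparian strip genes mostly below it, and the 13 reference genes along it.

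All 41 nuclear genes of the photosystems and light harvesting were tested and higher in rosettes, with differences from -10.07 to -5.58 and a median of -6.33. Their summed level ran from 1252 to 1293 over the root libraries and from 91970 to 116400 over the rosette libraries. PSBQ2, a subunit of the oxygen-evolving complex, was at 11.3 and 11.7 in roots against 1598 and 1665 in rosettes, a difference of -7.03 ± 0.09 (SE, n = 2 per organ, limma adjusted p = 4.42e-05). LHCB1.3, an antenna protein of photosystem II and among the 3 genes with the highest rosette mean, was at 273.9 and 202.9 in roots against 13050 and 14170 in rosettes. LHCB1.1, a close relative on the same chromosome, was at 1.37 and 2.1 in roots against 1471 and 5807 in rosettes. The rosette libraries differed by much more for LHCB1.1 than for LHCB1.3. Reads of the LHCB1 and RBCS copies may be split between near-identical genes, and how the authors handled them is not given in the sources used here, so the split within these families is uncertain.

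Calvin cycle and photorespiration genes followed, with all 28 higher in rosettes and a median of -6.87. RBCS1A, a small subunit of Rubisco, had the highest rosette mean of all genes, at 14460 and 13270, against 113.2 and 113.7 in roots (-6.92 ± 0.16, limma adjusted p = 4.42e-05). RBCS2B, another small subunit, had the widest difference of all genes towards rosettes, at 0.134 and 1.36 in roots against 6455 and 5359 in rosettes (-11.81 ± 0.37). RCA, which encodes the activase of Rubisco, was at 36.5 and 33.6 in roots against 5624 and 5613 in rosettes. CA1, a chloroplast carbonic anhydrase, was at 0.0672 and 0.662 in roots against 3052 and 2390 in rosettes, and its gene overlaps AT3G01510. The smallest difference was that of TKL1, a transketolase, at 210 and 276 in roots against 1302 and 676 in rosettes (-1.96 ± 0.36). The TKL1 call was lost without either root library, that is, when the first or the second was left out in turn, and the other 27 calls were kept.

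Of 18 genes for chlorophyll synthesis and its regulators, 17 were tested and all 17 were higher in rosettes, with a median of -4.49. PORA, a protochlorophyllide reductase, did not pass the filter, at 0.609 and 0.405 in rosettes. GLK1, a transcription factor that activates photosynthesis genes, was at 0.0672 and 0.26 in roots against 138 and 78 in rosettes (-6.50 ± 0.30). Its relative GLK2 was at 7.75 and 5.92 in roots against 89.1 and 105 in rosettes, with a smaller difference of -3.65 ± 0.16. HEMA1, the first committed enzyme of the pathway, was at 30.8 and 31.5 in roots against 171 and 412 in rosettes, and its call was lost without either root library. The chloroplast genome's own transcripts, 102 of 133 of which were tested, were higher in rosettes for 98 genes and higher in roots for none, with a median of -2.73. Some rows were identical in all 4 libraries, such as ATCG00940 and ATCG01190, at 3.3 and 4.23 in roots. Others jumped between replicates, such as ATCG01210 at 0.0084 and 25.6 in roots. The 98 are thus not all separate measurements. Polyadenylated RNA was sequenced, and plastid and mitochondrial transcripts are mostly not polyadenylated, so their levels are those of a captured part.

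The YAB polarity genes and the stomatal genes were at or near 0 in roots. YAB1 and YAB3, transcription factors of the lower leaf side, were at 0.00839 and 0.00838 in roots, while YAB1 was at 28.8 and 29.1 and YAB3 at 27.3 and 28.6 in rosettes. FAMA, which drives guard cell formation, was at 0.00839 and 0.00838 in roots against 19.8 and 19.2 in rosettes (-4.35 ± 0.11). STOMAGEN, a secreted peptide that raises stomatal density, was at 0.126 and 0.369 in roots against 42.2 and 45.2 in rosettes. All 8 stomatal genes were tested and higher in rosettes, with a median of -3.40. These genes mark the rosette label, and their summed level in roots was 0.361 to 0.721, against 111.2 to 127.8 in rosettes.

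Of 16 genes for shoot apex and leaf development, 12 were tested, 10 were higher in rosettes and the median was -2.58. The shoot meristem regulators CLV3 and WUS were among the 4 that did not pass the filter, with WUS at 0.191 and 0.191 in rosettes. STM, a meristem homeobox gene, was at 0.0839 and 0.0838 in roots against 6.3 and 6.25 in rosettes. KNAT1, a homeobox relative of STM, went the other way, at 16.4 and 14.3 in roots against 5.51 and 3.82 in rosettes (1.54 ± 0.19). KAN1, a polarity gene, was not called, at 8.97 and 7.96 in roots against 7.67 and 7.89 in rosettes. The calls of KNAT1, AS1 and TCP4 were lost without either root library.

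Cuticle and wax genes were higher in rosettes for 14 of the 15 tested out of 18, with a median of -2.97. CER6, which elongates the fatty acids of wax, was at 1.46 and 0.595 in roots against 194 and 184 in rosettes (-6.58 ± 0.23). CER5, a wax exporter, was at 2.8 and 2.23 in roots against 100.2 and 78.2 in rosettes. CER4, which makes primary alcohols from fatty acyl chains, was the member higher in roots, at 9.32 and 8.88 in roots against 0.728 and 0.0476 in rosettes (2.91 ± 0.27). The calls of GPAT4 and CYP86A4 towards rosettes were absent on the deposited scale and lost without either root library, and that of GPAT4 also without either rosette library.

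**Figure D2:**
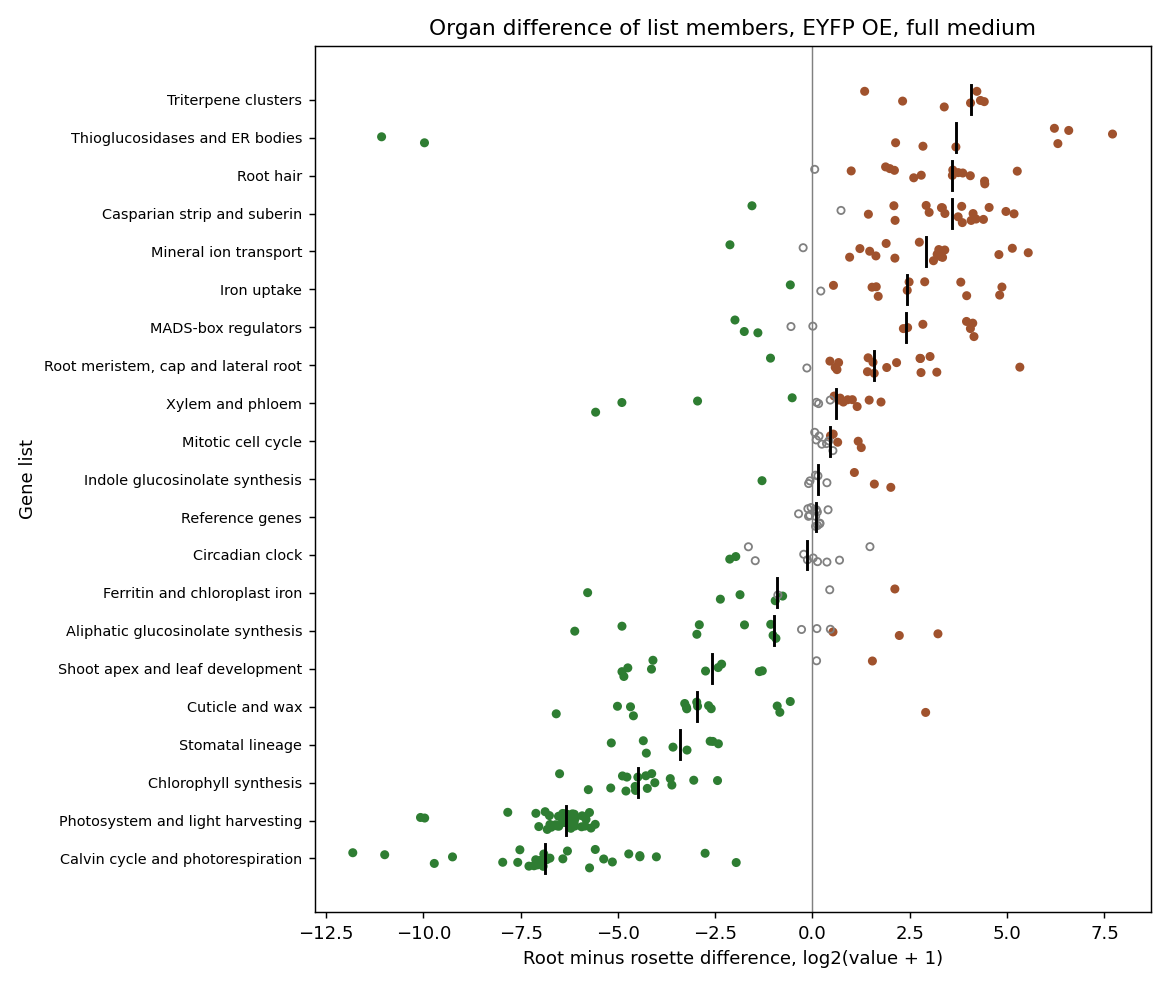
Root minus rosette difference, log2(value + 1), of each tested member (points, jittered vertically) of 21 gene lists in EYFP OE plants. Brown points were called higher in roots, green points higher in rosettes and open points were not called; the black bars are list medians, from -6.87 for the Calvin cycle to 4.06 for the triterpene clusters.

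Root hair genes were higher in roots for 14 of 15, all tested, with a median of 3.59. Root hairs are outgrowths of epidermal cells, started by RHD6 and grown under RSL4. RHD6 was at 12.9 and 11 in roots against 0.0597 and 0.0595 in rosettes (3.60 ± 0.13), and RSL4 was at 5.05 and 5.23 in roots against 0.0119 in both rosette libraries. EXPA7, a cell wall expansin of hair cells, was at 22.5 and 24.2 in roots against 0.0835 and 0.179 in rosettes (4.43 ± 0.12, limma adjusted p = 4.817e-05). PRP3, a proline-rich wall protein, was at 45.9 and 40.5 in roots against 0.143 and 0.155 in rosettes (5.26 ± 0.12). GL2, which keeps root epidermal cells hairless and is needed for leaf trichomes, was not called, at 6.43 and 7.5 in roots against 6.3 and 6.99 in rosettes. CPC, a small MYB protein of the same circuit, was at 9.64 and 10.7 in roots against 4.92 and 4.31 in rosettes, and its call was lost without either root library.

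The root-hair element (RHE), a motif described in promoters of hair genes, was searched by its published degenerate form on both strands of the 250 bases before each gene's annotated start. It was found for 5 of the 15 root hair genes (33.3%) and for 160 of all 20483 tested nuclear genes (0.781%). The 5 genes were EXPA7, EXPA18, LRX1, PRP1 and PRP3, and none of them exceeded 0.179 in a rosette library. A match of letters is a description and not a site. The motif was described in promoters of hair genes, which may include these 5, so the shares are no independent test. The regions of 4 of them, which overlap no other gene, are printed 5′ to 3′ in the direction of the gene, from the RefSeq assembly TAIR10.1, with the RHE match in capitals. All 4 genes lie on the + strand, EXPA7 with chr1:4276255-4276504, LRX1 with chr1:4069742-4069991, PRP1 with chr1:20504651-20504900 and PRP3 with chr3:23182472-23182721.
EXPA7: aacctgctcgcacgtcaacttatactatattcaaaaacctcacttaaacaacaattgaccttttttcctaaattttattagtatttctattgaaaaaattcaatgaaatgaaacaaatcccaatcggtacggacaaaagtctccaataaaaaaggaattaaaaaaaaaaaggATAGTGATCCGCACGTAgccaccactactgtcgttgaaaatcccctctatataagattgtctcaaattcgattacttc
LRX1: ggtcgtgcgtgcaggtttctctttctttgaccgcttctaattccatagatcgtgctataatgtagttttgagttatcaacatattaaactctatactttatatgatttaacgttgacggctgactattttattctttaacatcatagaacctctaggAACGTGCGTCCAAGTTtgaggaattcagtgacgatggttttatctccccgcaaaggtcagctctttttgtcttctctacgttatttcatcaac
PRP1: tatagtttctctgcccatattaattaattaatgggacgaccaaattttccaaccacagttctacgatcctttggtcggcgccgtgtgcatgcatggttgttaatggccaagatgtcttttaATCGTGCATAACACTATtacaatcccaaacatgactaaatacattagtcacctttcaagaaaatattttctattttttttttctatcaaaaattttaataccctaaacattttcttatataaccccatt
PRP3: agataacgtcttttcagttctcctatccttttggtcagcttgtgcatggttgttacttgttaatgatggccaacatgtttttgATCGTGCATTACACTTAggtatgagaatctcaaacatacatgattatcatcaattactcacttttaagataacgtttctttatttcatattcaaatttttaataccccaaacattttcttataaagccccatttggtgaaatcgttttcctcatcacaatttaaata

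Light-regulated promoters often carry a G-box (CACGTG) or an I-box (GATAAG), and these were searched in the same windows, on both strands. Among the 41 photosystem genes, 7 (17.1%) held a G-box, against 7.18% of all tested nuclear genes, and 11 (26.8%) held an I-box, against 12.3%. The G-box and I-box shares were 17.9% and 14.3% of the 28 Calvin cycle and photorespiration genes. They were 11.8% and 5.88% of the 17 chlorophyll genes. Of a list of 11 circadian clock genes, 45.5% held a G-box. A match of letters is a description here too, and the shares were not tested. Both motifs stood before PSBQ2, which is printed because its window overlaps no other gene, with both motifs in capitals. It lies at chr4:2673244-2673493 on the - strand of TAIR10.1.
PSBQ2: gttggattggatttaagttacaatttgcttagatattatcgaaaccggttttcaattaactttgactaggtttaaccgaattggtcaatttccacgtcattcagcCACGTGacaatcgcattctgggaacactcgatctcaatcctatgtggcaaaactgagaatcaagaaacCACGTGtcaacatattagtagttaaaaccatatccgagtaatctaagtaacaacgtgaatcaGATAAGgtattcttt
Across the genes higher in rosettes by a difference of at least 4, the shares were 7.11% for the G-box and 18.7% for the I-box. A TATA box (TATAAA) was held by 58.5% of the genes higher in roots by at least 4 and by 41.6% of those higher in rosettes by as much, against 46.4% of all.

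Casparian strip and suberin genes were higher in roots for 18 of 20, with a median of 3.57. CASP1, a membrane protein that places the strip, was at 66.4 and 66 in roots against 1.21 and 0.56 in rosettes (5.18 ± 0.19). PER64, a peroxidase that polymerizes its lignin, was at 36.3 and 35.2 in roots against 0.191 and 0.155 in rosettes. ASFT, which adds ferulate to suberin, was at 87 and 62.8 in roots against 3.56 and 4.93 in rosettes. KCS20 was higher in rosettes, at 32 and 26.9 in roots against 92.5 and 83.7 in rosettes (-1.55 ± 0.12), while KCS2, its close relative in very-long-chain fatty acid elongation, was at 25.9 and 19.7 in roots against 2.65 and 1.66 in rosettes (2.92 ± 0.22). FAR1, a fatty acyl reductase, was not called, with 21.7 and 27 in roots against 24.3 and 8.09 in rosettes, where the groups overlapped. The CASP5 call was lost without either rosette library.

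Of 20 genes of the root meristem, cap and lateral roots, 18 were tested and 16 were higher in roots, with a median of 1.57. PLT1, a stem cell regulator of the root tip, was at 7.27 and 4.8 in roots against 0.0119 in both rosette libraries (2.77 ± 0.20). SMB, a transcription factor of the root cap, was at 7.9 and 6.58 in roots against 0.0119 in both rosette libraries. PIN2, which carries auxin from the root tip, was at 56.4 and 49 in roots against 0.334 and 0.333 in rosettes, the widest difference of the list at 5.33 ± 0.12. SCR was not called, at 15.1 and 13.6 in roots against 16.5 and 15.4 in rosettes, and SHR, which acts with it in the ground tissue, was at 13.3 and 12.6 in roots against 8.39 and 8.22 in rosettes (0.58 ± 0.10). ACR4, a receptor kinase, was higher in rosettes, at 2.27 and 2.1 in roots against 6.31 and 5.17 in rosettes (-1.08 ± 0.14). The calls of SHR, SCL3, JKD, ACR4 and AUX1 were lost without either root library, and that of FEZ without either rosette library.

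Ion transporters were higher in roots for 16 of 18 tested out of 21, with a median of 2.93. PHT1;1, a phosphate transporter, was at 105 and 96.1 in roots against 1.28 and 1.07 in rosettes (5.54 ± 0.11, limma adjusted p = 4.42e-05). AMT1;3, for ammonium, was at 38 and 38 in roots against 0.477 and 0.345 in rosettes. NRT2.1, for nitrate at low supply, was at 164 and 286 in roots against 3.09 and 8.37 in rosettes. SULTR2;1, a sulfate transporter of the vasculature, was higher in rosettes, at 20.14 and 18.15 in roots against 92.8 and 80.5 in rosettes (-2.12 ± 0.11). AMT1;1 was not called, at 57.5 and 59.3 in roots against 75.5 and 63.3 in rosettes. The calls of NAR2.1, AMT1;2, PHT1;4 and HKT1 were lost without either root library, and that of HKT1 also without either rosette library. The BOR1 call was lost without root replicate 2 and without rosette replicate 1.

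On full medium, 11 of 13 tested genes for iron uptake, of 15 in the list, were higher in roots, with a median of 2.43. IRT1, the main root iron transporter, was at 11.2 and 19.3 in roots against 0.0119 in both rosette libraries (3.96 ± 0.27). FIT, the transcription factor of the uptake genes, was at 35 and 34 in roots against 1.81 and 1.27 in rosettes (3.81 ± 0.14). F6'H1 and PDR9, which make and export coumarins that mobilize iron, had differences of 4.87 ± 0.19 and 4.81 ± 0.12. BGLU42, which releases coumarins from their glucosides, was higher in rosettes at 13.5 and 12.8 in roots against 21.7 and 18.5 in rosettes, a call that was absent on the deposited scale. MYB10 was not called, and S8H and MYB72 did not pass the filter. The calls of AHA2, NRAMP1 and BGLU42 were lost without either root library, and that of CYP82C4 without either rosette library.

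The genes for iron storage and chloroplast iron had a median of -0.92, with 5 of 8 higher in rosettes, against 28.9% of all tested genes. Under the 3 scalings alike, 3 of the 8 were higher in rosettes, and the median was -0.42 on the deposited scale. FRO7, the chloroplast ferric reductase, was at 0.00839 and 0.00838 in roots against 68.3 and 43.1 in rosettes (-5.78 ± 0.24). FER2 alone was higher in roots, at 7.08 and 7.56 in roots against 0.716 and 1.14 in rosettes (2.12 ± 0.16), whereas its fellow ferritin FER4 was at 13.8 and 15.2 in roots against 56.2 and 110 in rosettes (-2.37 ± 0.34). FER1 was not called, with 63.3 and 108 in roots against 70.8 and 332 in rosettes, where the groups overlapped. YSL4, a metal transporter, was not called either. The calls of FER3 and YSL6 were absent on the deposited scale, and those of FER3, FER4 and YSL6 were lost without either root library. That of FER3 was also lost without rosette replicate 2.

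Glucosinolates are sulfur-rich defence compounds of the Brassicaceae, and the aliphatic and the indole branch differed between the organs gene by gene. In the aliphatic branch 8 of 14 genes were higher in rosettes and 3 in roots, against 28.9% and 32.2% of all tested genes. The median was -0.98. CYP79F1 was at 0.285 and 0.184 in roots against 112 and 62.9 in rosettes (-6.11 ± 0.30), while CYP79F2, the next gene on chromosome 1, was at 59.9 and 58.1 in roots against 5.71 and 5.14 in rosettes (3.22 ± 0.10). Both enzymes convert chain-elongated methionine. The chain-elongating synthases split likewise, with MAM1 at 23.7 and 24.8 in roots against 197 and 180 in rosettes (-2.91 ± 0.09) and MAM3 at 89.6 and 94.9 in roots against 17.9 and 19.9 in rosettes (2.23 ± 0.10). IPMDH1, a dehydrogenase of the same elongation, was higher in roots by 0.53 ± 0.12. Among the regulators, MYB29 was at 0.0672 and 0.00838 in roots against 36 and 24.7 in rosettes, and MYB28 was at 25.4 and 25 in roots against 68.4 and 42.6 in rosettes. The calls of MYB28 and UGT74C1 were absent on the deposited scale. Those of MYB28, MYB76, FMOGS-OX1, UGT74C1 and IPMDH1 were lost without either root library, and that of CYP83A1 without root replicate 1. The IPMDH1 call was also lost without either rosette library.

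The indole branch had a median of 0.14, with 3 of 9 genes higher in roots, 1 higher in rosettes and 5 not called. Over all tested genes, 32.2% were called higher in roots and 28.9% higher in rosettes, so the root count was near the general share. MYB34, a regulator, was at 68.5 and 60.9 in roots against 20.13 and 11.5 in rosettes (2.01 ± 0.27), and CYP79B2, the tryptophan-converting enzyme, was higher in roots by 1.59 ± 0.21. MYB51, another regulator, was higher in rosettes, at 6.91 and 7.16 in roots against 16.1 and 21.7 in rosettes (-1.30 ± 0.17). Without either root library the calls of MYB34, MYB51 and CYP79B2 were lost and that of MYB122 was kept.

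The thioglucosidases that break glucosinolates down differed in opposite directions between the organs. TGG1 and TGG2, near each other on chromosome 5, were at 0.0504 and 0.394 (TGG1) and 0.0923 and 0.268 (TGG2) in roots. In rosettes TGG1 was at 3158 and 2145 and TGG2 at 1274 and 1089. The differences were -11.07 ± 0.24 and -9.97 ± 0.13. TGG4 and TGG5 on chromosome 1 stood the other way, with TGG4 at 94.9 and 102 in roots against 0.0955 and 0.441 in rosettes (6.30 ± 0.17) and TGG5 at 92.8 and 92.9 in roots against 0.155 and 0.381 in rosettes (6.22 ± 0.13). The other 5 genes, for ER bodies and their beta-glucosidases, were higher in roots. PYK10, the main protein of these bodies, was at 1849 and 1847 in roots against 164 and 124 in rosettes, and NAI1, its transcription factor, was at 30.3 and 23.8 in roots against 4.32 and 6.56 in rosettes. All 9 calls were kept without any 1 library.

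**Figure D3:**
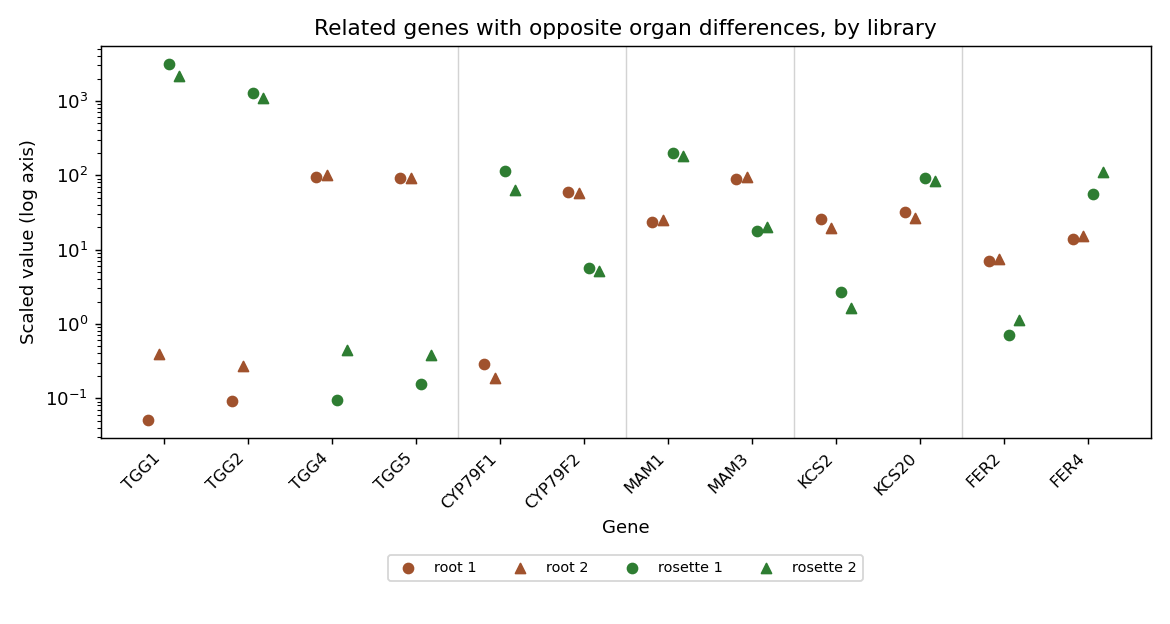
Scaled level on a log axis of 12 genes in 5 families in each of the 4 EYFP OE libraries, with roots in brown and rosettes in green, circles for replicate 1 and triangles for replicate 2. In each family, divided by grey lines, members with higher root and with higher rosette values stand side by side, such as TGG1 at 3158 and 2145 in rosettes and TGG4 at 94.9 and 102 in roots.

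All 7 tested genes of the triterpene clusters, small genomic groups of neighbouring genes for root metabolites, were higher in roots, with a median of 4.06. The thalianol genes THAS1, THAH and THAD lie between positions 19434758 and 19461706 of chromosome 5 (TAIR10.1). THAS1, the synthase, was at 30.5 and 30 in roots against 0.501 and 0.429 in rosettes (4.41 ± 0.11). THAH and THAD had differences of 4.06 ± 0.11 and 4.32 ± 0.16. MRN1, the marneral synthase, was at 7.75 and 1.9 in roots, and its partner MRO was at 20.9 and 15.9. Both were under 0.05 in rosettes, and the MRN1 call was lost without either rosette library.

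The called xylem genes were higher in roots, and the called phloem genes were higher in rosettes. Among the xylem and secondary wall genes, IRX3, a cellulose synthase, was at 14.8 and 11.2 in roots against 6.6 and 5.14 in rosettes (1.02 ± 0.19), and XCP1, a protease of dying vessel cells, was at 93.7 and 74.5 in roots against 26.1 and 22 in rosettes (1.76 ± 0.16). Sucrose carriers of the phloem were higher in rosettes. SUC2 was at 11.6 and 14.1 in roots against 106 and 106 in rosettes (-2.95 ± 0.12), and SWEET11 was at 2.94 and 1.3 in roots against 142 and 142 in rosettes (-5.57 ± 0.27). SWEET12 differed by -4.90 ± 0.31 and APL, a phloem regulator, by -0.52 ± 0.10. The xylem genes MYB83 and XCP2 (0.10 and 0.46) and the phloem gene SEOR1 (0.16), at 37.1 and 31.6 in roots against 29.9 and 31.2 in rosettes, were not called. Over the list of 16 the counts were 9 higher in roots and 4 in rosettes, against 32.2% and 28.9% of all tested genes. The list median was 0.61, and the rosette count was near the general share. Of the 13 calls, 6 were kept without root replicate 1 and 5 without root replicate 2, those 5 being IRX9, XCP1, SUC2, SWEET11 and SWEET12. Without rosette replicate 2, 7 were kept. The APL call was absent on the deposited scale and the LAC17 call on the reference-gene scale.

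Of 12 MADS-box regulators 7 were higher in roots and 3 in rosettes, against 32.2% and 28.9% of all tested genes. The median was 2.39, and the rosette count was near the general share. AGL12, AGL14, AGL21 and AGL42 had differences from 3.96 to 4.15. AGL12 was at 25.4 and 22.3 in roots against 0.465 and 0.333 in rosettes. The flowering regulators FLC, SVP and FUL were higher in rosettes. FLC was at 0.0923 and 0.0587 in roots against 3.71 and 1.79 in rosettes, and SVP was at 11.8 and 13.5 in roots against 67.6 and 41.8 in rosettes. The calls of FLC and SVP were lost without either root library, AGL16 and SOC1 were not called, and none of 10 flower and seed genes passed the filter.

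Mitotic genes had a median of 0.44 and 5 of 12 were higher in roots, none in rosettes, against 32.2% and 28.9% of all tested genes. CDKB1;1, a kinase of dividing cells, was at 21 and 24.6 in roots against 10.8 and 7.42 in rosettes (1.25 ± 0.20), and CYCB1;3, a mitotic cyclin, differed by 1.18 ± 0.12. KNOLLE, a syntaxin of the cell plate, was at 53.8 and 60.1 in roots against 50.6 and 55.7 in rosettes and was not called. Without either root library the CYCB1;3 call was kept and the other 4 were lost. The CDKB2;1 call was also lost without either rosette library, and that of CYCB2;1 without rosette replicate 1.

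Of 11 clock genes, 8 were at least 2-fold apart between the rosette libraries and none between the root libraries. The other 3 were PRR7, ELF3 and LUX. CCA1, a morning transcription factor, was at 17.4 and 13.2 in roots against 20.4 and 93 in rosettes, and its partner LHY was at 15.1 and 12.2 in roots against 20.5 and 96.5 in rosettes. TOC1, of the evening, was at 28.1 and 25.8 in roots against 49.6 and 17.4 in rosettes, and GI was at 9.58 and 8.47 in roots against 10.1 and 2.44 in rosettes. Rosette replicate 2 was thus high for CCA1 and LHY and low for TOC1 and GI. Only PRR7 and RVE8 of the 11 were called, both higher in rosettes. PRR7 was at 4.54 and 4.29 in roots against 21.9 and 23.4 in rosettes, while the call of RVE8, at 11.2 and 7.17 in roots against 20.5 and 70 in rosettes, was absent on the deposited scale and lost without either root library or rosette replicate 2. The list median of -0.13 was 0.36 on the deposited scale, 0.49 without rosette replicate 1 and -0.56 without rosette replicate 2. Of 12 LHCB genes, 4 were at least 2-fold apart between the rosette libraries (LHCB1.1, LHCB2.1, LHCB2.2 and LHCB3), LHCB2.2 being at 682 and 2035, while LHCB4.1 was at 2477 and 2499. Their part in the organ differences was not tested. The median difference of the 41 photosystem genes was -6.54 without rosette replicate 1 and -6.14 without rosette replicate 2.

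**Figure D4:**
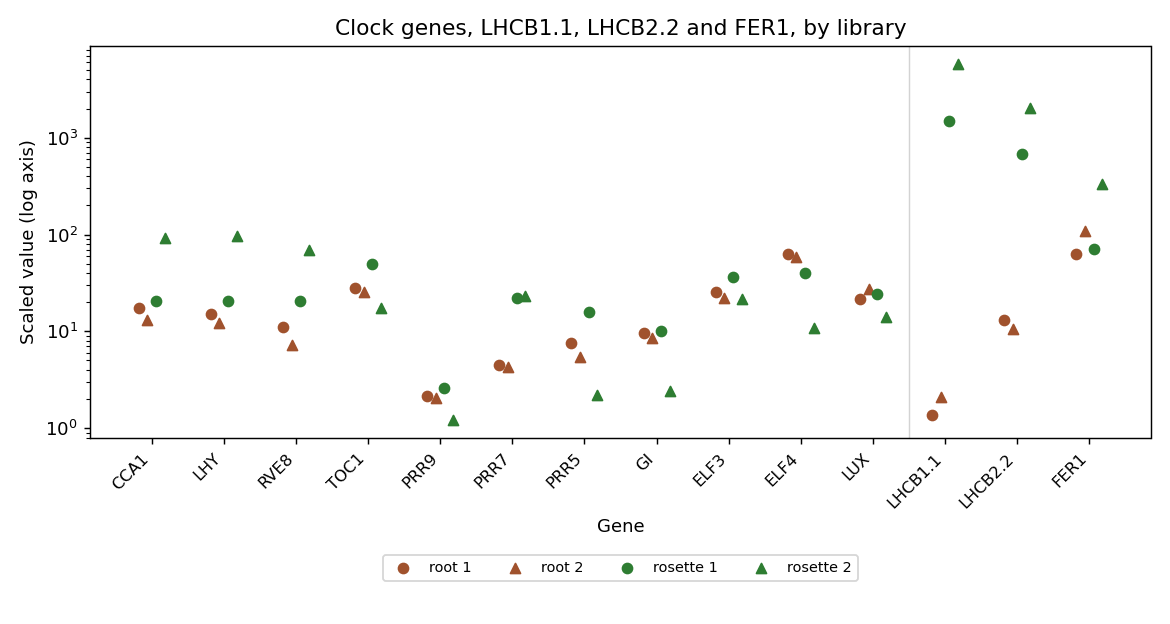
Scaled level on a log axis of 11 clock genes and, right of the grey line, LHCB1.1, LHCB2.2 and FER1 in each EYFP OE library, with roots in brown and rosettes in green, circles for replicate 1 and triangles for replicate 2. The rosette libraries differ for CCA1 (20.4 and 93) and LHY (20.5 and 96.5), while the root libraries lie together.

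Among all tested genes, the 10 largest differences towards roots ran from 6.73 to 8.09. AT1G52070 was at 399.1 and 282.9 in roots against 0.131 and 0.357 in rosettes (8.09 ± 0.21, limma adjusted p = 4.45e-05). AT1G52060, on the same strand of chromosome 1 (19358800 to 19360822 in TAIR10.1, against 19364809 to 19366925 for AT1G52070), was at 233.6 and 189 in roots against 0.0597 and 0.191 in rosettes (7.56 ± 0.15). RefSeq annotates both as mannose-binding lectin superfamily proteins. AT5G54370 and the glycine-rich protein genes AT2G05510 and GRP9 followed BGLU21 in this group, GRP9 being at 1695 and 1963 in roots against 7.05 and 21 in rosettes. AT3G01190 and AT1G49570 are peroxidase genes, AT4G15390 an acyltransferase gene and AT3G28550 an extensin-like gene. Towards rosettes the 10 largest ran from -11.81 to -9.56 and held RBCS2B, RBCS1B, TGG1, TGG2, LHCB1.1, LHCB1.4, CA1, CA2, ECS1 and GER3. GER3, a germin-like gene, was at 0.0168 and 0.0671 in roots against 1585 and 389 in rosettes. The 3 genes with the highest root means, AT3G41768, AT2G01021 and AT3G41979, were not called on the joint scale. RefSeq annotates AT3G41768 and AT3G41979 as rRNA genes and AT2G01021 as a protein-coding gene with a transcript of 102 bases. AT3G41768 was at 2557 and 3416 in roots against 3785 and 2705 in rosettes.

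The EYFP construct itself was read at 1502 and 1121 in roots against 328.9 and 307.3 in rosettes, 4.12-fold higher in the root mean on the joint scale, with no test. In the IMA1 line the same row was at 0.385 and 0.454 in roots against 0.0826 and 0.133 in rosettes. The groups of the EYFP line did not overlap.

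In the IMA1 line limma called 12924 of the same 20694 genes (62.5%), 6812 higher in roots and 6112 higher in rosettes. Called in both lines in the same direction were 11414 genes, 90.2% of the EYFP calls and 88.3% of the IMA1 calls. Of the 3993 EYFP calls with a difference of at least 2, 3969 were called in the same direction. The root and rosette libraries of both lines sit in the same pair of tables, so the scaling of the tables is shared by both comparisons. The RIN ranges of the organs hold for both lines, and same-numbered rosette libraries shared differences across the lines (see Other observations). The comparisons are thus not fully independent. Called in opposite directions were 11 genes. A fit of the 8 libraries with a line by organ term called 3 genes (0.0145%). In it, 858 of the 20694 had an unadjusted p under 0.05. That is below the share of 0.05 that would pass on average if no gene differed. AT2G23672, which RefSeq annotates as a long non-coding RNA, was at 2.17 and 1.16 in EYFP roots and 83.4 and 84.6 in EYFP rosettes, but at 0.677 and 1.27 in IMA1 roots and 0.0236 and 0.0241 in IMA1 rosettes. Its organ difference was higher in the IMA1 line by 5.95 ± 0.31 (limma adjusted p = 0.0067). Without root replicate 1 the IMA1 count was 8333, and without root replicate 2 it was 8121.

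**Figure D5:**
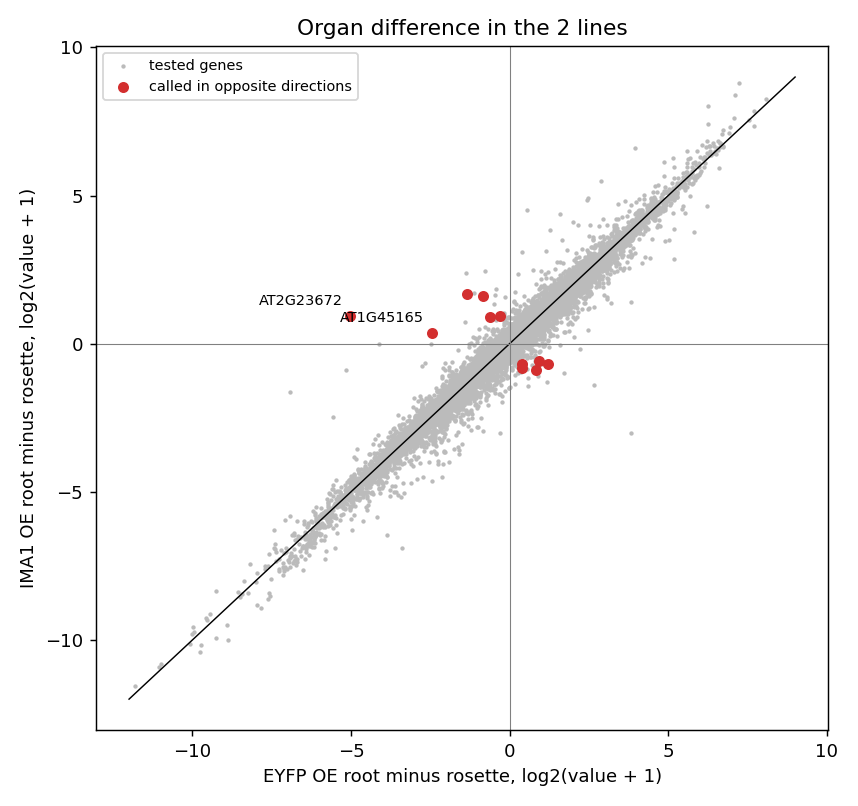
Root minus rosette difference, log2(value + 1), of each tested gene in EYFP OE plants (x axis) and IMA1 OE plants (y axis), with the line of equal difference in black. Red points are the 11 genes called in opposite directions, of which AT2G23672 (-5.02 and 0.93) lies farthest from the line.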

How the data were processed

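Polyadenylated RNA of roots and rosettes was sequenced with a stranded kit, per the labels' protocols. The authors deposited 4 tables, 1 per organ and IMA1 medium, that hold a normalized signal per gene and library; the table names give TMM and no unit, and the steps in between are not given in the sources used here. The submitters' processing notes name bcl2fastq 1.8.4, Trimmomatic 0.35, Bowtie2 2.0.6, edgeR 3.12.1, limma 3.26.9 and TAIR10, with no role or order. Read depth is unknown, so no counting interval could be given. Of 16 library columns, 2 could not be matched to a sample and were not used.

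The root columns come from one table and the rosette columns from another, each scaled separately, so the organ test crosses tables. The 4 columns were rescaled by medians of ratios over 11832 genes with at least 5 in every column, log2(value + 1) was taken, and limma 3.58.1 in R 4.3.3 (lmFit, eBayes with trend) was fitted to genes with at least 1 in at least 2 columns. A gene that passes through its high organ alone enters the test, so members below the filter are named. A call is a Benjamini-Hochberg adjusted p under 0.05. The fit was tested on simulated data. Named genes are the 10 largest differences per direction among genes called in 3 scalings with groups apart, the 3 highest means per organ, the EYFP construct and list members, always including called members that go against their list's median. Members and lists were chosen with earlier results of these data known. Alternatives were other scalings, pseudocount, filters, a fit without trend, a replicate block and each library left out; the line by organ test was added after seeing the data.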

Additional observations from a re-analysis of the deposited data

Results flagged for a closer look

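In the fit of the 8 full-medium libraries with a line by organ term, 3 genes had an organ difference that was not the same in both lines. AT2G23672, a long non-coding RNA gene, differed by 5.95 ± 0.31 (log2, SE; limma adjusted p = 0.0067), with 83.4 and 84.6 in EYFP rosettes and 0.0236 and 0.0241 in IMA1 rosettes. AT4G19112 differed by 3.98 ± 0.32 (limma adjusted p = 0.043), with 19.7 and 11.2 in EYFP rosettes, 0.0118 and 0.0121 in IMA1 rosettes and 21.3 to 22.9 in the roots of both lines. AT1G45165 differed by 2.83 ± 0.18 (limma adjusted p = 0.0128), with 7.84 and 6.76 in EYFP rosettes and 0.0354 and 0.0362 in IMA1 rosettes. For each of the 3, both rosette libraries of the IMA1 line were near 0. Each line is a single one, so the transgene and other features of a line cannot be told apart.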

How the results depend on the processing

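The count of calls changed most with the filter and when a root library was left out. The latter fits took the spread from the 2 rosette libraries alone. The EYFP count ran from 6805 to 12829 with 1 library left out, and the IMA1 count from 8121 to 11582, against 12655 and 12924 with all libraries. Without any filter on low values, 20105 (EYFP) and 20221 (IMA1) of 33607 genes were called. Of the 8371 extra EYFP genes, 5427 had all 4 deposited values under 0.05, where the rescaling alone sets the difference. Requiring a 2-fold difference left 7527 and 7467. On the deposited values 15986 EYFP genes were called, under quantile normalization 13961 with 60.2% higher in roots, and with the replicate block 12514 (EYFP) and 13405 (IMA1). The replicate numbers are not stated to pair the samples. Deviations of same-numbered root and rosette libraries correlated at 0.123, from 2 pairs.

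Across 331 named genes and list members and their alternatives, 4362 of 4601 values kept their side of the threshold, including sign changes without a call. Another 147 lost a call and 80 gained a call. The other 12 changed sign with a call in the main fit, the alternative or both. On the deposited values these were SCR at 0.332, CYP83B1 at 0.439, PP2AA3 at 0.457, UBC21 at 0.418, EXPR1 at 0.377 and EXPR2 at 0.393, where the median of all genes had moved by 0.452. Under quantile normalization they were UBQ10 at 0.545, AT3G41768 at 1.9, AT2G01021 at 1.84 and AT3G41979 at 1.96. TOC1 was at 0.601 without rosette replicate 1 and -0.86 without rosette replicate 2, and PRR5 at 1.22 and -1.18. The cause was not tested. With the pseudocount of 0.1, list medians widened most where 1 organ was near 0, as for the stomatal genes (-6.38). Depth is unknown, so what it limits cannot be given.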

Other observations

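The rosette libraries differed from each other more than the root libraries, and the IMA1 line shared much of that difference. Of the 358 genes at least 2-fold apart between EYFP rosette replicates, 215 were higher in replicate 2 and 143 in replicate 1. In IMA1 rosettes 305 of the 358 differed in the same direction between the replicates of the same number, 91 of them by at least 2-fold. Between the EYFP root replicates 220 of the 358 did, 10 of them by at least 2-fold. CCA1 was at 37.2 and 94.4 in IMA1 rosettes, LHCB1.1 at 1299 and 4990 and GER3 at 1152 and 345, the same order as in EYFP rosettes. The labels give no harvest time or batch for a replicate number, and the cause was not tested.

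Seed storage transcripts were near 0 except in 1 library. CRU3 was at 3.02 and CRA1 at 1.92 in EYFP root replicate 2, and neither exceeded 0.131 in the other 3 EYFP libraries. The 429 genes restricted to rosettes were picked for levels under 1 in both root libraries, so their low root sums follow from that choice. They summed to 122.5 and 125.9 in roots, against 37080 and 31850 in rosettes. The 406 genes restricted to roots, picked the other way round, summed to 121.9 and 125.2 in rosettes, against 14210 and 13360 in roots.

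Mitochondrial genes, 35 of 146 of which were tested, were higher in roots for 19 and in rosettes for 2. Another 14 were not called, and the median difference was 0.77. Over all tested genes, 32.2% were called higher in roots and 28.9% higher in rosettes. By transcript length, the median difference of all genes was 0.12 among the 5121 with the shortest transcripts (up to 1214 bases) and 0.06 among the 5121 with the longest (from 2300 bases).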
